A study of Mus musculus with 10 samples.

Results

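The genes described here are 10 mouse genes through which the liver receives and carries out the glucagon signal for glucose output: Gcgr, Ppargc1a, Creb3l3, Crem, Sik1, Pck1, G6pc, Slc37a4, Got1 and Tat. They were chosen by name for their roles, with earlier results of these data known. Each of the 10 was among the 43629 genes in the count table. All 10 also passed the filter on low counts, which left 14143 genes to test. Poly(A) RNA was sequenced from whole livers of male mice of a genetically engineered lung tumour model, crossed further to FVB. The mice were 12 to 20 weeks old when tumours were induced. Lung tumours had been induced in every mouse by intranasal adenovirus carrying Cre recombinase, so both groups carried the same alleles and had been given the same virus, and no tumour-free liver was analysed here. The 5 CACS mice had cachexia, the study's term for a body weight loss beyond 15%, and the 5 NCACS mice did not. Weight change from the labels was -8 ± 4.64% (SD, n = 5) in NCACS mice and -30.6 ± 1.82% (SD, n = 5) in CACS mice, and mice are named by the numbers in their labels (11 to 15 NCACS, 16 to 20 CACS).

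Glucagon binds its receptor Gcgr on hepatocytes and raises cAMP, which activates protein kinase A. The kinase phosphorylates CREB and releases the CRTC coactivators from the hold of salt-inducible kinases, so that genes with cAMP response elements are transcribed, among them Ppargc1a, Pck1 and G6pc. Sik1 and Crem are themselves induced by this signal and restrain it, and the aminotransferases Got1 and Tat help to bring amino acid carbon to glucose synthesis.

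RefSeq promoter windows (GRCm38.p6, 250 bases before to 50 bases after a start) were searched, and 11 windows of 8 of the 10 genes are counted here. No window of Sik1 or Crem was searched, so the counts given here say nothing of those genes. The windows of 3 glucose output genes are shown because cAMP response elements are the DNA letters through which CREB acts. The short core TGACG, or CGTCA on the other strand, is in capitals. Each window reads 5′ to 3′ on the strand of its gene: Pck1 at chr2:173152823-173153122 on the plus strand, Ppargc1a at chr5:51567676-51567975 on the minus strand and G6pc at chr11:101367466-101367765 on the plus strand.
Pck1: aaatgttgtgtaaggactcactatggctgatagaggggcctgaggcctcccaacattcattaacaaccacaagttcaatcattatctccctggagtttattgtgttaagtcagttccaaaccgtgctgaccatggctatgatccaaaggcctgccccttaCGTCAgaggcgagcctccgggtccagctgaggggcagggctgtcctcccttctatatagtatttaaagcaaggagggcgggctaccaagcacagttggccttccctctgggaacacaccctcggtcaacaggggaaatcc
Ppargc1a: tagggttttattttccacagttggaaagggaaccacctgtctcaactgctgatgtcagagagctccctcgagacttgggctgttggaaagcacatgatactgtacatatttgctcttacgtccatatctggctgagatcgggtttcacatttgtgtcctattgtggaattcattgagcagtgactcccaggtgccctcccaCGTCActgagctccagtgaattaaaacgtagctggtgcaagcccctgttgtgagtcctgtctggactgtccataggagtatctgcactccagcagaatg
G6pc: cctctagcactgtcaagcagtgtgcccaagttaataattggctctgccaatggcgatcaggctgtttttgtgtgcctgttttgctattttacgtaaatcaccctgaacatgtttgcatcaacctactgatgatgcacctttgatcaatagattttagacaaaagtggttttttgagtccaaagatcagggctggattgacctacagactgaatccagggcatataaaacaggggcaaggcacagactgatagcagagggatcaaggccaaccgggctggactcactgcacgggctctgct
The core lay 90 bases before the start in Pck1 and 49 bases before it in Ppargc1a, and the G6pc window held none. Across the windows counted, 5 of 11 held a core, in 4 genes (Pck1, Ppargc1a, Slc37a4 and Creb3l3), against 20.8% of all 32851 windows. The 5 are not all separate sites, since overlapping Slc37a4 windows share a core, 61 and 214 bases before their starts. The Creb3l3 core lay in its window at chr10:81092542-81092841, and its window at chr10:81098823-81099122 held none. The full site TGACGTCA, which reads the same on both strands and contains the core on each strand, was in 0 of the 11 windows and in 1.79% of all windows. These matches describe the letters only.

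Libraries held between 31459179 and 40746178 counts. Hepatocyte markers (Alb, Apoa1 and others, 7 in the table) summed to 77080–121800 CPM, counts scaled to library size, in the NCACS group. For the CACS group the sum was 112500–142900 CPM. Alb alone made up most of it, with a mean of 68590 CPM without cachexia against 92840 CPM with it. By gene, 5 of the 7 were higher with cachexia, with 1 past the threshold (Hnf4a). Apob and Ttr were lower (log2 fold change -0.28 and -0.06). Kupffer cell markers were lower in CACS for 6 of 6 genes, with 1 past the threshold, and summed to 149.9–250.8 CPM in NCACS against 87.3–175 CPM in CACS livers. Leukocyte markers were lower for 5 of 5 tested genes, with none past the threshold, at 9.85–29.66 against 6.16–14.22 CPM, and Ly6g was at or near 0. Lung epithelial markers summed to at most 8.72 CPM, and Nkx2-1 was at or near 0, but Sftpa1 rose from 1.26–1.54 CPM to 1.72–5.65 CPM with cachexia (log2 fold change 1.27, edgeR adjusted p = 0.0323). Of the pancreatic markers, Cpa1, Prss2 and Cpb1 were at or near 0. Cela1 fell from 41.9–57.2 CPM to 9.02–23.9 CPM (log2 fold change -1.54, edgeR adjusted p = 0.0110), and Cela2a reached at most 1.33 CPM in the NCACS group and 3.61 CPM in the CACS group (1.64, adjusted p = 0.132). The part of these differences in the results below was not tested. The liver of NCACS mouse 15 stood apart in clock genes, with Dbp at 1.27 CPM against 52.1–82.9 CPM in the other NCACS livers and Arntl at 33.8 CPM against 1.54–7.21 CPM. Values without that liver are given with each of the 10 genes and with each gene list.

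In CACS livers 9 of the 10 genes had a higher mean and 1 had a lower one. Their median difference on the log2 scale was 0.70, against -0.01 over all tested genes, of which 49.4% were higher. None of the 10 passed the threshold of an adjusted p under 0.05 in edgeR's quasi-likelihood test, where 3.8% of tested genes passed and 1.89% passed as higher. By unadjusted p under 0.05, 6 of the 10 passed, against 21.6% of tested genes. Because the 10 were chosen with earlier results of these data known, these comparisons with all tested genes are a description. DESeq2 called 3 of the 10 (Sik1, Slc37a4 and Got1), against a background of 8.82%, and limma-voom called 0. In none of the 10 did the groups fail to overlap, as they did in 7.07% of tested genes. An exact two-sided permutation test over all assignments of livers to groups, whose smallest possible p is 0.00794, gave p under 0.05 for 3 genes before adjustment, and 0 of the 10 passed once adjusted over them. In bulk tissue, fewer cells of a type and less RNA per cell cannot be told apart.

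**Figure D1:**
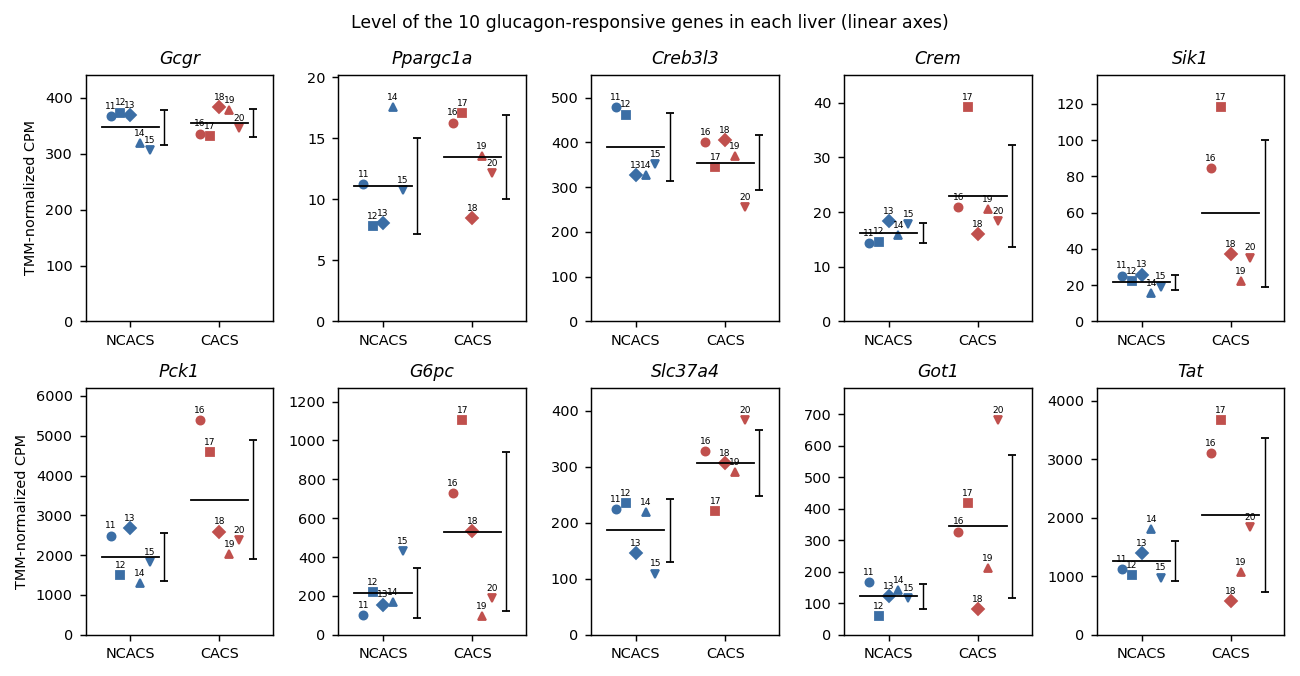
Level of each of the 10 genes in TMM-normalized CPM (vertical axis, linear from 0) in 5 NCACS livers (blue) and 5 CACS livers (red), with mouse numbers at the points, horizontal lines for means and bars for ± SD. CACS mice 16 and 17 have the 2 highest Sik1 values, 84.8 and 118 CPM, while Gcgr lies between 307 and 384 CPM in all 10 livers.

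Gcgr (ENSMUSG00000025127, chromosome 11, 120530699 to 120538986, plus strand, GRCm38) encodes the glucagon receptor. Its level in NCACS livers 11 to 15 was 367.7, 373.6, 368.5, 318.5 and 307.0 CPM, and in CACS livers 16 to 20 it was 336, 332, 384, 378 and 345 CPM. The groups overlapped between 331.6 and 373.6 CPM, with NCACS mice 14 and 15 below every CACS liver and CACS mice 18 and 19 above every NCACS liver. The log2 fold change was 0.03 (SE 0.10, 95% interval -0.19 to 0.25; edgeR adjusted p = 0.890), and -0.01 without NCACS mouse 15. The interval thus held no rise or fall of the receptor's RNA beyond 0.25 on the log2 scale. The antisense gene Gm11789 lies within the same span without sharing an exon.

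Ppargc1a (ENSMUSG00000029167, chromosome 5, 51454250 to 51567726, minus strand) encodes PGC-1α, a coactivator of gluconeogenic transcription. It was measured at 11.2, 7.82, 8.09, 17.6 and 10.8 CPM in NCACS livers 11 to 15 and at 16.3, 17.1, 8.49, 13.5 and 12.1 CPM in CACS livers 16 to 20. The highest liver of all was an NCACS one, mouse 14. Ppargc1a differed by a log2 fold change of 0.28 (SE 0.24, interval -0.24 to 0.81; edgeR adjusted p = 0.531). Creb3l3 (ENSMUSG00000035041, chromosome 10, 81084324 to 81098874, minus strand), a membrane-bound transcription factor of the hepatocyte that responds to fasting, was the 1 gene with a lower mean in CACS. Its levels ran from 326 to 480 CPM in NCACS and from 256 to 406 CPM in CACS livers, with a log2 fold change of -0.13 (SE 0.16, interval -0.49 to 0.22; edgeR adjusted p = 0.682). Without NCACS mouse 15 the log2 fold changes were 0.28 for Ppargc1a and -0.16 for Creb3l3.

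Sik1 (ENSMUSG00000024042, chromosome 17, 31844250 to 31855804, minus strand) encodes a salt-inducible kinase that acts as a brake on CRTC2. NCACS livers 11 to 15 had 25.3, 22.2, 25.8, 15.7 and 19.2 CPM, and CACS livers 16 to 20 had 84.8, 118, 37.2, 22.3 and 35.2 CPM. In 4 of 5 CACS livers Sik1 was above every NCACS liver, and mouse 19 lay inside the NCACS range. The log2 fold change was 1.46 (SE 0.40, interval 0.60 to 2.33; edgeR adjusted p = 0.0617, DESeq2 adjusted p = 0.00337), and the exact permutation p was 0.0238. Leaving out CACS mouse 19 brought it past the threshold in edgeR, at a log2 fold change of 1.67. Without NCACS mouse 15 it was 1.43. Crem (ENSMUSG00000063889) encodes the cAMP response element modulator, including the repressor ICER, which counts per gene do not separate from its other products. Its level was 14.3, 14.6, 18.3, 15.8 and 17.8 CPM in NCACS livers 11 to 15 and 21.0, 39.3, 15.9, 20.6 and 18.3 CPM in CACS livers 16 to 20. Mouse 17 was far above the rest, and without it the log2 fold change went from 0.51 (SE 0.22, edgeR adjusted p = 0.194) to 0.24. The exact permutation p for Crem was 0.0317, and its log2 fold change without NCACS mouse 15 was 0.55. An exon of Crem overlaps Gm6225 on the opposite strand, which had 58 counts over the 10 livers.

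Pck1 (ENSMUSG00000027513, chromosome 2, 173153048 to 173159273, plus strand) encodes cytosolic phosphoenolpyruvate carboxykinase, which commits oxaloacetate to glucose synthesis. It stood at 2489, 1500, 2673, 1305 and 1820 CPM in NCACS livers 11 to 15 and at 5394, 4589, 2592, 2025 and 2368 CPM in CACS livers 16 to 20. CACS mice 16 and 17 were above every NCACS liver, and the other 3 lay within the NCACS range. Its log2 fold change was 0.79 (SE 0.31, interval 0.13 to 1.46; edgeR adjusted p = 0.158; exact permutation p = 0.0794).

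G6pc (ENSMUSG00000078650, chromosome 11, 101367561 to 101377903, plus strand) encodes the catalytic subunit of glucose-6-phosphatase, which releases free glucose. NCACS livers 11 to 15 had 101, 218, 155, 166 and 432 CPM, and CACS livers 16 to 20 had 727, 1105, 534, 96.9 and 189 CPM. The lowest liver of all was CACS mouse 19, and the highest NCACS liver was mouse 15. The log2 fold change was 1.31 (SE 0.59, interval 0.03 to 2.59; edgeR adjusted p = 0.223; exact permutation p = 0.206). It was 1.73 without NCACS mouse 15 and 0.85 without CACS mouse 17.

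Slc37a4 (ENSMUSG00000032114, chromosome 9, 44396852 to 44402968, plus strand) encodes the transporter that carries glucose-6-phosphate into the endoplasmic reticulum, where G6pc acts. Its level was 224, 235, 146, 219 and 109 CPM in NCACS livers 11 to 15 and 328, 222, 307, 290 and 384 CPM in CACS livers 16 to 20. All CACS livers but mouse 17, which was among the highest for other members, exceeded every NCACS liver. The log2 fold change was 0.71 (SE 0.22, interval 0.24 to 1.19; edgeR adjusted p = 0.0879, DESeq2 adjusted p = 0.0247), with an exact permutation p of 0.0238. Without NCACS mouse 15, the lowest liver, it was 0.58, and that of Pck1 was 0.77.

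Got1 (ENSMUSG00000025190, chromosome 19, 43499752 to 43524605, minus strand) encodes cytosolic aspartate aminotransferase. NCACS livers 11 to 15 had 168, 58.6, 123, 141 and 117 CPM, and CACS livers 16 to 20 had 327, 417, 82.6, 211 and 681 CPM. Mouse 18 was the 1 CACS liver inside the NCACS range, and mouse 20 was the highest of all. Got1 had a log2 fold change of 1.5 (SE 0.46, interval 0.50 to 2.50; edgeR adjusted p = 0.0885, DESeq2 adjusted p = 0.00854; exact permutation p = 0.0635). Leaving out CACS mouse 18 brought it past the edgeR threshold, at 1.75. Tat (ENSMUSG00000001670, chromosome 8, 109990437 to 109999803, plus strand) encodes tyrosine aminotransferase, a classic target of both glucagon and glucocorticoids. It was measured at 1129, 1022, 1397, 1809 and 977 CPM in NCACS livers 11 to 15 and at 3104, 3672, 576, 1065 and 1837 CPM in CACS livers 16 to 20. CACS livers were both the highest (mice 16 and 17) and the lowest (mouse 18). For Tat the log2 fold change was 0.70 (SE 0.42, interval -0.23 to 1.62; edgeR adjusted p = 0.363). Without NCACS mouse 15 the log2 fold changes were 1.49 for Got1 and 0.62 for Tat.

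**Figure D2:**
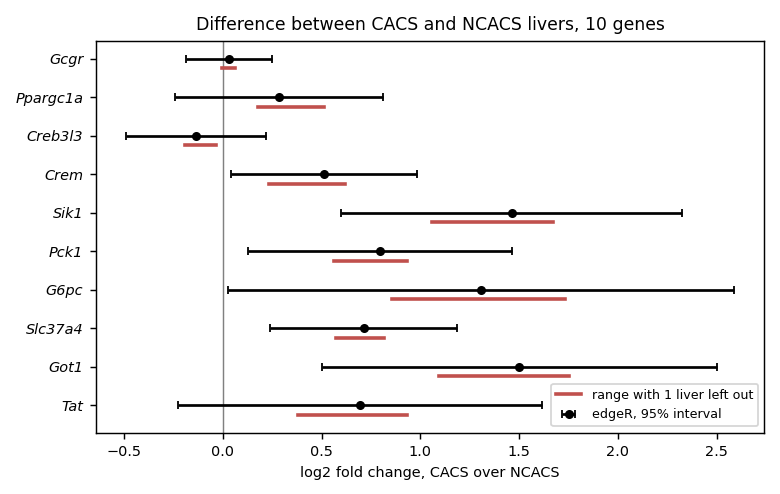
Log2 fold change of each gene, CACS over NCACS (horizontal axis), with edgeR estimates and 95% intervals in black and, in red, the range of estimates when 1 liver was left out. The interval lies above 0 for 6 genes (Crem, Sik1, Pck1, G6pc, Slc37a4 and Got1), and that of Gcgr runs from -0.19 to 0.25.

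Per kilobase of exon, Pck1 (571 ± 175 CPM per kb, SD, n = 5) and Tat (527 ± 143) were the most abundant of the 10 in NCACS livers and did not differ beyond their spread. Gcgr (132 ± 12.1) and Creb3l3 (129 ± 24.96) came next and were likewise within their spread. G6pc (88.9 ± 53.3), Slc37a4 (65.3 ± 19.5) and Got1 (47.9 ± 15.9) followed, each within the spread of its neighbour. The regulators Sik1 (4.21 ± 0.83), Crem (2.74 ± 0.31) and Ppargc1a (1.68 ± 0.60) had the lowest levels per kb.

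CACS livers differed more among themselves than NCACS livers for 6 of the 10 genes. The ratio of the SD of log2 CPM, CACS over NCACS, was 3.30 for Sik1, 3.08 for Crem, 3.01 for Tat, 1.99 for Got1, 1.87 for G6pc and 1.39 for Pck1. A ratio as high as that of Sik1 was found in 2.21% of tested genes, as high as that of Crem in 2.81% and as high as that of Tat in 2.998%. The median ratio was 1.63 over the 10 genes and 0.95 over all tested genes, of which 46.3% were above 1. Ranked over the 10 livers, CACS mice 16 and 17 were in the top 2 for 6 and 7 of the 10 genes. These 2 livers were the highest of the 10 for Sik1, Pck1, G6pc and Tat.

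Co-variation between livers of the same group was measured after the group mean was taken from each log2 CPM value, so that the difference between groups did not enter. Of the 45 pairs of genes, 27 had a positive r, with a median of 0.20. By permutation over all within-group pairings, 5 pairs had p under 0.05 for Pearson's r and 0 passed after adjustment over the 45. For Spearman's rho these counts were 4 and 0.

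The closest pair was the kinase Sik1 and the enzyme Pck1. Pearson's r was 0.881 (permutation p = 0.00236, adjusted 0.106) and Spearman's rho was 0.939 (permutation p = 0.00125, adjusted 0.0563). Without the 2 livers farthest from the median of Sik1, CACS mice 17 and 19, r was 0.921, and with each liver left out in turn it ran from 0.854 to 0.916. With Sik1 itself counted, 5 of the 14143 tested genes, or 0.0354%, were as close to Pck1 as Sik1 was. In the other direction 13 genes, or 0.0919%, Pck1 among them, were as close to Sik1 as Pck1 was. Livers high in one were thus high in the other in both groups, but the pair did not pass the adjusted threshold.

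Sik1 and G6pc had r = 0.712 and rho = 0.624 (permutation p = 0.0975 and 0.148, adjusted 0.400 and 0.505), which fell to r = 0.263 without CACS mice 17 and 19. The 2 enzymes Pck1 and G6pc had r = 0.507 and rho = 0.612 (permutation p = 0.207 and 0.132, adjusted 0.475 and 0.505), with r = -0.049 without CACS mice 16 and 17. Got1 and Tat had r = 0.727 and rho = 0.721 (permutation p = 0.0629 and 0.0651, adjusted 0.400 and 0.466), and r was 0.350 without NCACS mouse 12 and CACS mouse 18. The relations of G6pc with Sik1 and Pck1 thus did not hold without those pairs of livers. For Got1 and Tat the fall came with CACS mouse 18, since r was 0.386 without that liver alone and 0.748 without NCACS mouse 12 alone.

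Ppargc1a and Tat had r = 0.715 and rho = 0.673 (permutation p = 0.00938 and 0.0492, adjusted 0.145 and 0.466), with r = 0.402 without NCACS mouse 14 and CACS mouse 18. Other pairs ran in opposite directions. Crem and Slc37a4 had r = -0.636 and rho = -0.673 (permutation p = 0.00965 and 0.0324, adjusted 0.145 and 0.466), with r = -0.865 without CACS mice 17 and 18. Gcgr and Ppargc1a had r = -0.708 and rho = -0.721 (permutation p = 0.0407 and 0.0331, adjusted 0.400 and 0.466), with r = -0.728 without NCACS mice 14 and 15. This relation depended on the scaling, since with library totals alone r was -0.483 (permutation p = 0.198, adjusted 0.533). Gcgr and Tat had r = -0.584 and rho = -0.564 (permutation p = 0.0482 and 0.0935, adjusted 0.400 and 0.468). Without NCACS mouse 15 this was the single pair past the adjusted threshold, at r = -0.841 (permutation p = 0.000694, adjusted 0.0313). No pair passed with any other liver left out, and the adjustment covered the pairs of that 1 setting alone. Gcgr also varied little, with an SD of log2 CPM of 0.13 in NCACS and 0.10 in CACS livers.

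**Figure D3:**
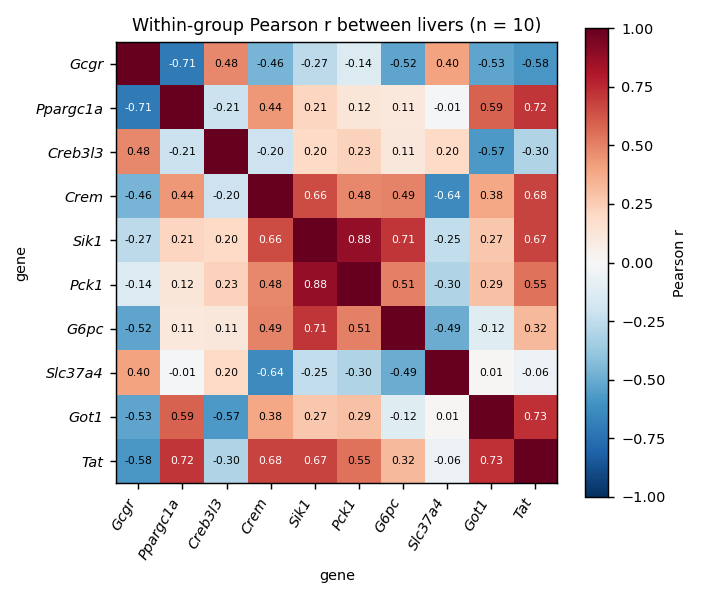
Pearson r between each pair of the 10 genes over 10 livers after removal of group means (color scale from -1, blue, to 1, red; both axes list the genes). Sik1 and Pck1 have the highest value, 0.881, and most values of the receptor Gcgr with the other genes are negative.

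**Figure D4:**
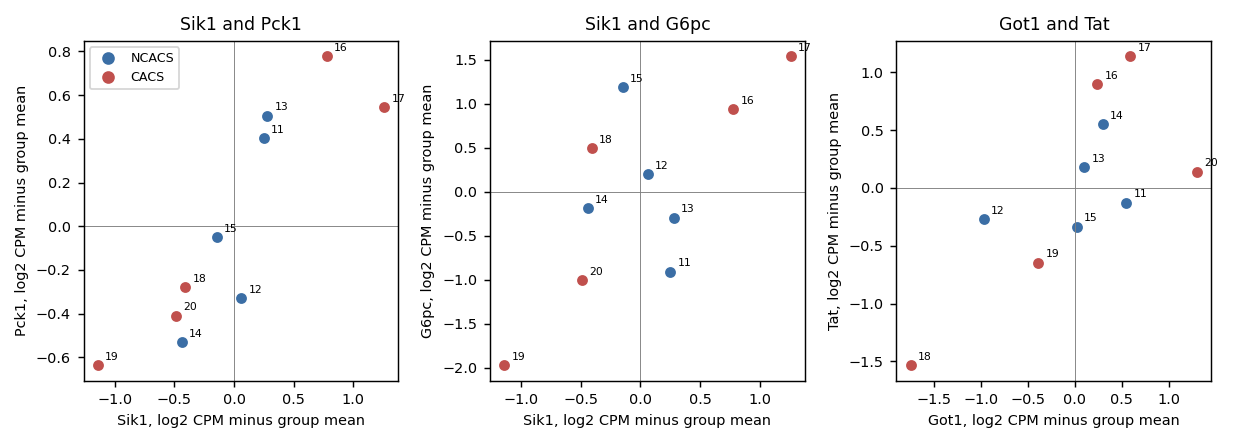
Log2 CPM minus the group mean for Sik1 with Pck1, Sik1 with G6pc and Got1 with Tat in each of 5 NCACS (blue) and 5 CACS livers (red), numbered by mouse. Sik1 and Pck1 move together in both groups (r = 0.881), with a slope of 1.29 in NCACS and 0.60 in CACS livers, whereas in the other 2 panels single livers such as CACS mouse 19 or 18 lie far from the rest.

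The median r of Gcgr with the other 9 genes was -0.46, against -0.01 with all tested genes, and for Tat these medians were 0.55 and -0.0042. With the 10 genes themselves left out, the genes most like Pck1 over the 10 livers by within-group r were Rapgef2 (0.955), Dennd5a (0.924), Tmem98 (0.869), Oaf (0.864) and Smurf1 (0.862). For G6pc they were Zmym4 (0.921), Meiob (0.921), Mysm1 (0.917), Hnrnpl (0.911) and Nek1 (0.907). Those most like Ppargc1a were Pik3c2g (0.990), Chd1 (0.920), Rabgap1l (0.916), Gstm6 (0.911) and Shld1 (0.911). Tat was matched most closely by Arhgef37 (0.938), Sptan1 (0.920), Retreg1 (0.908), Fhl1 (0.901) and Gstm3 (0.899). These r values are the highest among all genes searched over 10 livers and are given as a description.

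Within groups, no gene had a slope on weight change past the threshold. The smallest p was for Slc37a4, with 0.0756 log2 CPM per percent of weight (permutation p = 0.115, adjusted over the 10 slopes 0.325).

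A list of other genes of the glucagon signal ran from the receptor's G protein to the CREB coactivators. It also held Glp1r, Ramp2 and the transcription factors Foxo1, Nr3c1, Cebpb, Klf15 and Hnf4a, the last of which is also among the hepatocyte markers. The genes of this list were split in direction. Of 27 tested, 17 were higher and 10 lower, with a median log2 fold change of 0.05, and 4 rose past the edgeR threshold while 0 fell, against 1.89% of tested genes called as higher. Those were Crtc2, the CREB coactivator held by salt-inducible kinases (44.0 ± 3.05 CPM in NCACS and 56.3 ± 2.90 in CACS, SD, n = 5 each; log2 fold change 0.36, edgeR adjusted p = 0.0327), the kinase Sik3 (0.40, adjusted p = 0.0348), the insulin-restrained factor Foxo1 (0.57, adjusted p = 0.0375) and the hepatocyte factor Hnf4a (0.50, adjusted p = 0.0435). For Crtc2 the lowest CACS liver, 53.6 CPM, was above the highest NCACS liver, 47.7 CPM. The 4 calls were easily lost: with each of the 10 livers left out in turn, Crtc2 and Sik3 stayed past the threshold in 2 of 10 fits and Foxo1 and Hnf4a in 1 of 10. When NCACS mouse 15 was left out, 0 of the 4 passed, and the median was 0.04.

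Genes known to respond to cAMP, CREB or FOXO were mostly higher, 17 of 19 tested, against 49.4% of all tested genes, with a median of 0.62. Past the threshold 2 rose, against 1.89% of all tested genes, and 9 had an unadjusted p under 0.05, against 21.6%. The lists were chosen with earlier results of these data known, so these counts are a description. Lpin1, a phosphatidate phosphatase and coactivator, was 31.9–124 CPM in NCACS livers and 172–753 CPM in CACS livers (log2 fold change 2.33, edgeR adjusted p = 0.0220). Dusp1, a phosphatase of MAP kinases, was 8.79–17.1 CPM in NCACS livers, and in CACS mice 16 and 17 it reached 71.1 and 82.9 CPM against 18.3–27.1 CPM in the other 3 (1.89, edgeR adjusted p = 0.0374). Lpin1 stayed past the threshold in 10 of 10 fits with 1 liver left out and Dusp1 in 2 of 10. The list's median without NCACS mouse 15 was 0.57, and Lpin1 alone passed (2.13, edgeR adjusted p = 0.0371). Of 24 other genes of glucose output, 21 were higher, with a median of 0.15, and 0 passed the edgeR threshold. At unadjusted p under 0.05 there were 5, a share no higher than the 21.6% of all tested genes, and without NCACS mouse 15 the median was 0.14 with 0 called. The smallest p values there were those of the glycolytic and gluconeogenic enzymes Eno1 (0.52, adjusted p = 0.0931) and Gpi1 (0.40, adjusted p = 0.0964).

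Enzymes and carriers of amino acid use were evenly split, with 9 of 17 higher, a median of 0.01 and 0 past the edgeR threshold (4 at unadjusted p under 0.05, against 21.6% of all tested genes). The median turned to -0.06 without NCACS mouse 15, with 8 of 17 higher. The urea cycle enzyme Asl (0.97, edgeR adjusted p = 0.0581) and the amino acid carrier Slc38a2 (1.01, adjusted p = 0.123) had the smallest p. Of 11 glucocorticoid targets, a list that also holds Tat, 9 were higher, with a median of 0.70, and 3 rose: Fkbp5, a chaperone of the glucocorticoid receptor (2.27, edgeR adjusted p = 0.0359), the transcription factor Zbtb16 (2.59, adjusted p = 0.0222) and Dusp1. Of all tested genes 49.4% were higher and 1.89% rose past the threshold. At unadjusted p under 0.05 there were 7 of the 11, against 21.6% of all tested genes. Zbtb16 stayed past the threshold in 9 of 10 fits with 1 liver left out and Fkbp5 in 2 of 10, and without NCACS mouse 15 the median was 0.67 and Zbtb16 alone passed (2.79, edgeR adjusted p = 0.0355). The list was mixed in CACS mouse 17. Fkbp5 and Zbtb16 were low there (33.0 and 7.35 CPM), inside the NCACS range, and Mt1 and Mt2 were at their lowest (104 and 87.6 CPM). Tsc22d3, Per1, Dusp1 and Tat were at their highest in that liver (238, 131, 82.9 and 3672 CPM), as was Sik1.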

How the data were processed

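RNA of 5 NCACS and 5 CACS livers was sequenced from stranded poly(A) libraries. The engineered alleles of the mice are not reported here. Per the submitters' processing notes, the authors aligned reads to GRCm38 with STAR 2.4.1d and counted them with HTSeq 0.6.1, and they deposited raw counts per gene with no normalization. The annotation release and strand setting of the counting are not given in the sources used here. The study's batch correction was not repeated, since the labels give no batch, and 0 columns were left unused. Symbols came from GENCODE on the same build, and 1081 identifiers had none.

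Counts were filtered with filterByExpr, scaled by TMM and tested with edgeR 4.0.16 (quasi-likelihood, Benjamini-Hochberg over all tested genes, threshold 0.05) in R 4.3.3. DESeq2 1.42.0, limma-voom (limma 3.58.1), other scalings and filters and leaving out each liver were alternatives. Log2 CPM used a prior count of 2. Permutation tests used Python 3.11.15 and scipy 1.17.1, and the scripts were tested on simulated data. No pair of livers in a group was 1 library deposited in duplicate (smallest chi-square per degree of freedom 50.7). The members and gene lists were chosen with earlier results of these data known. Named list genes were those past the threshold or, in lists with fewer than 2, the 2 with the smallest p, and the 5 genes of at least 5 mean CPM most like Pck1, G6pc, Ppargc1a and Tat. Comparisons of Sik1, Pck1, G6pc and Tat with the cAMP, CREB and FOXO responsive list across livers were added after the data were seen.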

Additional observations from a re-analysis of the deposited data

How the results depend on the processing

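DESeq2 called 1376 genes, 3 of the 10 members and 17 list genes, against 538, 0 and 8 in edgeR, and without a filter on low counts edgeR called 5 list genes; the causes were not tested. With 1 liver left out in turn, genes called ran from 178 (without NCACS mouse 11) to 519, members called from 0 to 1 (Got1 without CACS mouse 18, Sik1 without CACS mouse 19), and list genes called from 1 (without NCACS mouse 11) to 7, with 2 without NCACS mouse 14 or 15 or CACS mouse 16 or 20. Members past the exact test after adjustment over the 10 ran from 0 to 2 (the 2 without CACS mouse 18), pairs past the adjusted threshold from 0 to 1, slopes from 0 to 0, and members with the larger SD in CACS from 6 to 7. The sign of Gcgr turned without NCACS mouse 15, at -0.0056, and its highest value was 0.0599 (without NCACS mouse 12). No paired analysis was possible because mouse numbers run from 11 to 15 in one group and from 16 to 20 in the other. With 5 livers a group, no member passed in edgeR although intervals of 6 members lay above 0.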

Other observations

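After the data were seen, the within-group r of Sik1, Pck1, G6pc and Tat was computed with each of the 19 tested genes known to respond to cAMP, CREB or FOXO, 76 relations in all over 10 livers. By permutation 0 of the 76 passed after adjustment, for r or for rho, and 55 had a positive r. The 2 with the smallest p for r were Tat with the phosphodiesterase Pde4b (r = 0.896, rho = 0.927; permutation p = 0.00257 and 0.00167, adjusted 0.173 and 0.126; r = 0.870 without CACS mice 17 and 18) and G6pc with Igfbp1, which binds insulin-like growth factors (r = 0.836, rho = 0.818; permutation p = 0.00632 and 0.00826, adjusted 0.173 and 0.126; r = 0.755 without CACS mice 17 and 19). Sik1 with Dusp1 had a higher r than the latter, 0.883, and rho = 0.891 (permutation p = 0.0151 and 0.0163, adjusted 0.176 and 0.177; r = 0.758 without CACS mice 17 and 19). Smaller p for r than that of Sik1 with Dusp1 also belonged to Tat with Klf15 (r = 0.778, permutation p = 0.00819, adjusted 0.173). The same held for negative relations with Id1, those of Pck1 (r = -0.582, permutation p = 0.00910, adjusted 0.173) and Sik1 (r = -0.321, permutation p = 0.0114, adjusted 0.173). Igfbp1 was 95.7 CPM in NCACS mouse 15, the NCACS liver highest in G6pc, against 5.75–27.1 CPM in the other NCACS livers. Nr4a1, an immediate early gene induced by cAMP and singled out after its values were seen, was 23.1 and 41.8 CPM in CACS mice 16 and 17 and at most 2.75 CPM in the other 8 livers. The 5 genes most like Sik1, also looked up after its values were seen, were Dapk1 (0.913), Hdac4 (0.909), Lsm10 (0.898), Ppp1r15a (0.894) and Dusp1 (0.883).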
